A study of Mus musculus with 6 samples.

Results

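The genes described here are 50 genes of the cell division cycle, out of the 33460 genes listed for each library, measured by RNA-seq in brain vessels of mice at postnatal day 6 (P6). They comprise cyclins, cyclin-dependent kinases (CDKs), CDK inhibitors, replication genes and genes of mitosis, and they were chosen by name and not by a measured value. All 50 were found by symbol in the annotation of the NCBIM37 mouse assembly. The mice behind the 6 libraries were *Pdgfrb-eGFP/NG2-DsRed* mice, which carry 1 transgene with eGFP under the *Pdgfrb* promoter (line Tg(Pdgfrb-eGFP)JN169Gsat/Mmucd) and another with DsRed under the promoter of NG2, the product of *Cspg4*. In 3 libraries the RNA was from FACS sorted cells positive for both reporters, called mural cells here, and in 3 libraries it was from microvascular fragments captured with anti-CD31 beads. The fragments hold endothelial cells as well as mural cells, so each comparison sets a sorted population against a mixture that contains it. All 6 libraries were of the same strain and age, without a treatment. According to the methods, the brains of 3 mice were divided, with one side used for each preparation. The labels number the libraries of each group 1 to 3 and do not tie a number to a mouse. The main fit therefore did not use the pairing of the preparations by mouse. Its p-values rest on the spread between libraries of a group and not on differences within a mouse.

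Cells enter the cycle in G1 phase, where D-type cyclins with Cdk4 or Cdk6 phosphorylate the retinoblastoma protein and so release E2F transcription factors. Cyclin E with Cdk2 then starts DNA replication, for which the MCM helicase and the sliding clamp PCNA are loaded, and Cdk1 with A-type and B-type cyclins drives mitosis until the anaphase-promoting complex (APC/C) marks its substrates for destruction. The brain vasculature is still growing in the first weeks after birth, when endothelial cells and pericytes both divide. In libraries from many cells, fewer cycling cells and less of these RNAs per cell cannot be told apart.

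The depth differed between the groups. The FPKM that 1 read pair gives was read off single-transcript genes. It implied library totals of 4.25 to 4.67 M read pairs in the fragments. In mural cells 1, 2 and 3 the implied totals were 1.765, 0.744 and 0.787 M. Sums over protein-coding genes came to 5.45 to 5.98 M in the fragments and to 2.36, 1.04 and 1.05 M in mural cells 1, 2 and 3. These sums exceeded the implied total in each library, so they are approximate and cannot be taken as depths. By both measures each mural library was below each fragment library. All 12 mural markers were higher in the sorted cells, with a median ratio of 9.17 (*Pdgfrb* 9.80, *Cspg4* 6.47, *Rgs5* 7.38). The promoters of *Pdgfrb* and *Cspg4* drove the reporters used for the sort, so the ratios of these 2 genes are not an independent check of it. Of the fibroblast markers, 4 of 5 were also called higher (80%, all genes tested 6.43%, median ratio 7.33). The 8 microglial markers were at a median of 8.59% of the fragments (*Csf1r* 8.21%, *Cx3cr1* 7.47%), and their summed FPKM was 1564 to 1806 in the fragments and 108 to 166 in mural cells. RNA of endothelial genes was still present in the sorted cells. The 12 endothelial markers were at a median of 68.5% of the fragments, with summed FPKM of 2303 to 2679 in the fragments and 1671 to 2178 in mural cells, *Pecam1* at 62.9% and *Cldn5* at 81.1%. Of these 12 markers 10 had a ratio under 1, and *Esam* (129%) and *Emcn* (121%) were above the fragments. The 5 perivascular macrophage markers were at a median of 8.41% and the 5 oligodendrocyte progenitor markers found at 130%. Of the latter, *Pdgfra* was at 159%, *Olig2* at 152%, *Olig1* at 130%, *Gpr17* at 121% and *Sox10* at 104.5%. Their median ratio was 1.31, 0.841 and 1.88 in mural cells 1, 2 and 3, and only *Pdgfra* had groups without overlap. The 3 neural progenitor markers tested were at a median of 75.3% (*Dcx* 61.6%), the 6 neuronal markers tested at 54.8% and the 3 erythroid markers tested at 97.1% (*Hbb-b1* 97.1%). The summed FPKM of the 8 astrocyte markers (median ratio 1.17) was 750 in mural cells 3. It was 212 and 257 in the other mural libraries and 297 to 418 in the fragments. *Slc1a2* was the largest part of the 750, at 236 FPKM. *Gfap* was at 52.4 FPKM in mural cells 3 and at 15.2 and 13.8 in the others, with 44.6 to 69.1 in the fragments. *Gjb6* went the other way, at 0 in mural cells 3 and at 2.43 and 1.41 FPKM in mural cells 1 and 2. The part of these cell types, and of the depth, in the cell cycle values below was not tested.

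Cell cycle RNA was present in both preparations, and most of the 50 genes were within 2-fold of each other in the mural cells and the fragments. Values are FPKM, read pairs scaled to transcript length and to library size, so that genes can be compared in level. The members were at a median of 19.8 FPKM in mural cells and 24.2 FPKM in the fragments, against 12.1 and 12.9 FPKM for the 14801 genes tested, and none was listed at 0 in any library. All 50 passed the filter for testing, an FPKM of 1 or more in 3 or more libraries. The summed FPKM of the members was 1449, 1314 and 1549 in fragments 1, 2 and 3, and 1252, 1192 and 1192 in mural cells 1, 2 and 3. Each mural library was therefore below each fragment library, and the ratio of the mean sums was 0.843.

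The ratio of mean FPKM (mural cells to fragments) ran from 0.303 to 2.09 over the members, with a median of 0.819. It was under 1 for 34 genes and above 1 for 16. Over all 14801 genes tested the median ratio was 0.943. Against the mean of the fragments, the median over the members was 0.826, 0.762 and 0.876 in mural cells 1, 2 and 3, where all genes tested gave 0.926, 0.896 and 0.912.

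Differences were tested on log2(FPKM + 1) with limma, with Benjamini-Hochberg adjustment over all genes tested. Log2 fold changes below are on that scale, where the added 1 shrinks the difference of weakly expressed genes, and their intervals are 95% intervals. A gene was called at an adjusted p under 0.05 together with a ratio above 2 or under 0.5. One member was called higher in mural cells, *Ccnd2*, where 6.43% of all genes tested were called higher. *Ube2c* was the only member called lower, where 10.1% of all genes tested were called lower. At an adjusted p under 0.05 with any fold, 1 member (2%) rose and 4 members (8%) fell in mural cells, namely *Pcna*, *Mki67*, *Top2a* and *Ube2c*. Over all genes tested these shares were 9.34% and 13%. The other 45 members did not pass the test.

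A missed threshold does not show equal levels, so the intervals are of use. The interval of the log2 fold change lay between -1 and 1, within 2-fold either way, for 32 of 50 members (64%), and for 45% of all genes tested, whose median level was lower. The 3 mural values did not overlap the 3 fragment values for 3 members higher in mural cells, *Ccnd2*, *Cdk6* and *Tpx2*, where the share of all genes tested was 16.5%. They did not overlap for 15 members lower in mural cells (30%), where the share of all genes tested was 24.5%.

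**Figure D1:**
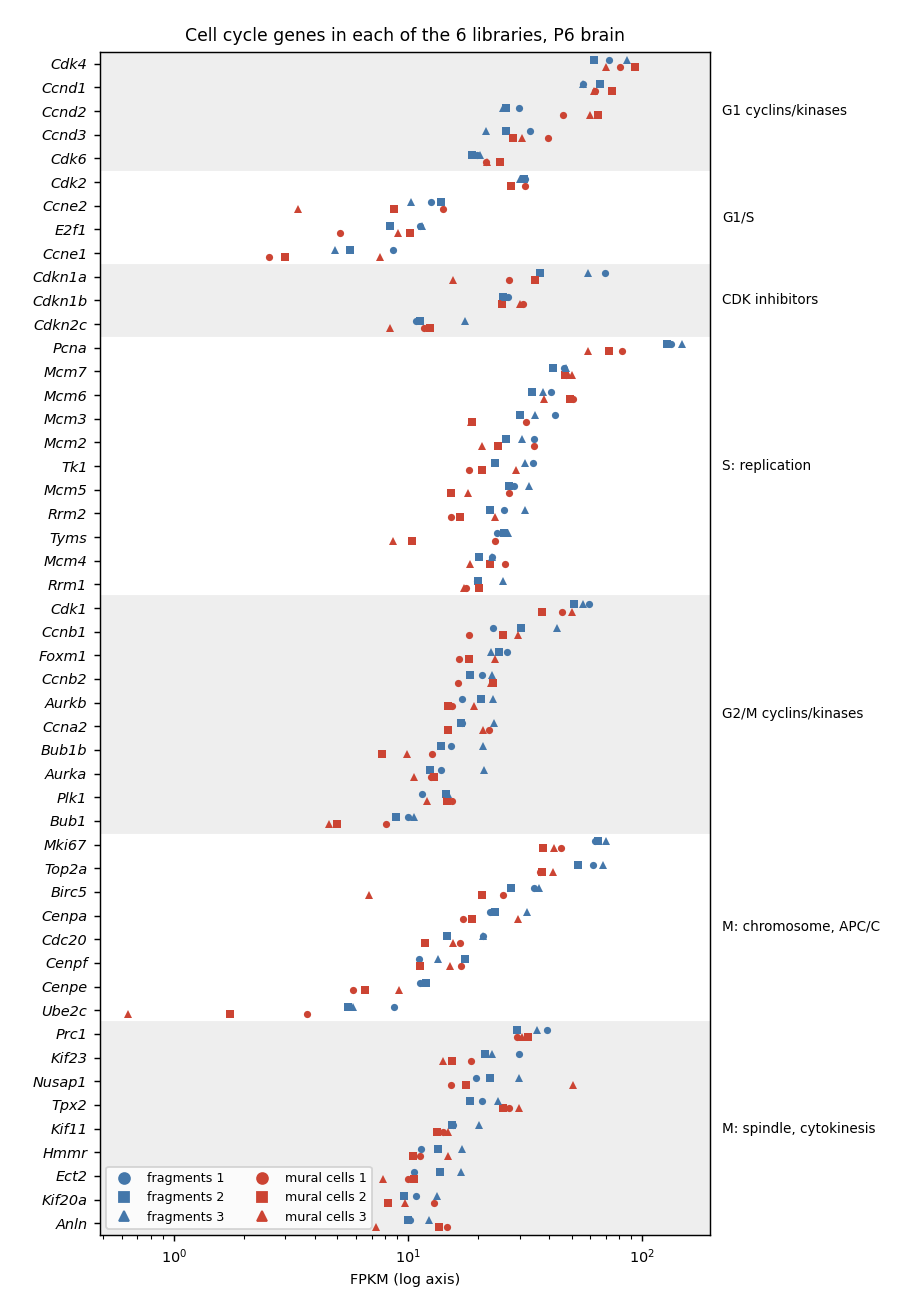
FPKM (log axis) of the 50 cell cycle genes in each of the 6 libraries, grouped by phase, with blue points for microvascular fragments and red points for mural cells (symbol shape: library number). The red points of *Ccnd2* lie to the right of the blue ones, those of *Pcna*, *Mki67*, *Top2a* and *Ube2c* lie to the left, and most other genes overlap or nearly overlap.

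Of the genes that passed the test, *Ccnd2* encodes cyclin D2, a G1 cyclin (NCBIM37 chr6:127075797-127101066, minus strand). Its FPKM was 29.9, 26.3 and 25.4 in fragments 1, 2 and 3 and 46.0, 65.0 and 59.7 in mural cells 1, 2 and 3. All mural libraries were above all fragment libraries, by 2.09-fold on the means (log2 fold change 1.03, interval 0.65 to 1.41, limma adjusted p = 0.00408, between 0.00288 and 0.0237 over the alternatives). *Ccnd2* has a single annotated transcript, and 446, 266 and 259 read pairs lay behind the 3 mural values. Without mural cells 2, the highest library, the ratio was 1.94 and the adjusted p 0.0113, so that the gene passed the test but not the 2-fold limit.

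*Pcna*, the clamp that holds DNA polymerases on the template, had the highest FPKM of all members in the fragments. The values were 132, 128 and 148 in fragments 1, 2 and 3 and 81.9, 72.1 and 58.9 in mural cells 1, 2 and 3. The groups were well apart, with a ratio of 0.521 (log2 fold change -0.94, interval -1.28 to -0.60, limma adjusted p = 0.00376, at most 0.0214 over the alternatives). The annotation also holds pseudogenes named *Pcna-ps1* and *Pcna-ps2*, to which reads could have been split.

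*Mki67*, whose product Ki-67 coats mitotic chromosomes and is a common label of dividing cells, was at 63.1, 65.0 and 70.2 FPKM in fragments 1, 2 and 3. In mural cells 1, 2 and 3 it was at 44.9, 37.8 and 41.9 FPKM. The spread within each group was small beside the gap between them, and the ratio was 0.629 (log2 fold change -0.66, interval -0.94 to -0.38, limma adjusted p = 0.00734, at most 0.0461 over the alternatives). This single-transcript gene had 783, 278 and 326 read pairs in mural cells 1, 2 and 3.

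*Top2a* encodes topoisomerase II alpha, which untangles sister chromatids. It was at 61.7, 53.2 and 68.3 FPKM in the fragments and at 36.8, 37.3 and 41.7 FPKM in mural cells, again without overlap. The ratio was 0.632 (log2 fold change -0.64, interval -0.96 to -0.33, limma adjusted p = 0.0136). The test was no longer passed when fragments 1 (adjusted p = 0.0691) or fragments 3 (adjusted p = 0.0705, the highest over the alternatives) were left out.

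*Ube2c*, the ubiquitin-conjugating enzyme that works with the APC/C, was the lowest of the members in mural cells. Its FPKM was 8.69, 5.56 and 5.83 in fragments 1, 2 and 3 and 3.70, 1.75 and 0.637 in mural cells 1, 2 and 3. Every mural value was below every fragment value, and the ratio was 0.303 (log2 fold change -1.45, interval -2.44 to -0.47, limma adjusted p = 0.0454). Only about 13, 3 and 1 read pairs stood behind the mural values, and exons of *Tnnc2* overlap the gene on the other strand. The adjusted p rose to 0.178, 0.110 and 0.127 without fragments 1, 2 and 3, and to 0.0803 and 0.0722 without mural cells 2 and 3, with a range of 0.0153 to 0.178 over all alternatives.

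Promoter sequences are shown for the 4 genes that fell, and for *Ccnb2* as a mitotic gene whose ratio was close to 1, because many cell cycle genes share short promoter motifs. Each line gives the 250 bases before the annotated start from RefSeq (GRCm38.p6), 5′ to 3′ on the strand of the gene: *Pcna* at chr2:132253181-132253430 (minus), *Mki67* at chr7:135716380-135716629 (minus), *Top2a* at chr11:99024190-99024439 (minus), *Ube2c* at chr2:164769679-164769928 (plus) and *Ccnb2* at chr9:70421555-70421804 (minus). Capitals mark the letters of 3 motifs searched on both strands: the cell cycle genes homology region (CHR) with the letters TTTGAA, the CCAAT box with the letters CCAAT, and an E2F core with the letters TTGGCGC or with TTCCCGC or with TTCGCGC. A match on the other strand appears as its reverse complement, for instance TTCAAA for the CHR.
Pcna: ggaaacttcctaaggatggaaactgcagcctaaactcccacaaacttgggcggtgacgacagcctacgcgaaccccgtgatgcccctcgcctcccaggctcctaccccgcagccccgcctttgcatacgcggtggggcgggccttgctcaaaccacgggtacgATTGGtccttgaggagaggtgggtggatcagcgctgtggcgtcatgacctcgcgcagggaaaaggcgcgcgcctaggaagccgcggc
Mki67: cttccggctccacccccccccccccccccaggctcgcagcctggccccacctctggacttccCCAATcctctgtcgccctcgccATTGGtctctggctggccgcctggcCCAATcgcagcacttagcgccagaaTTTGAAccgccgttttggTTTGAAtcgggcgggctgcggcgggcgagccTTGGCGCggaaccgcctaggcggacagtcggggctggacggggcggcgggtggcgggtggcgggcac
Top2a: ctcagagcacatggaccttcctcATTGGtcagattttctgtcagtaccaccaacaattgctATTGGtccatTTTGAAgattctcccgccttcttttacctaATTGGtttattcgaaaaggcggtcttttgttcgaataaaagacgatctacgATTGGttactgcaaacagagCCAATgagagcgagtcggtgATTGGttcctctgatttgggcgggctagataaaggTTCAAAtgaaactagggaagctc
Ube2c: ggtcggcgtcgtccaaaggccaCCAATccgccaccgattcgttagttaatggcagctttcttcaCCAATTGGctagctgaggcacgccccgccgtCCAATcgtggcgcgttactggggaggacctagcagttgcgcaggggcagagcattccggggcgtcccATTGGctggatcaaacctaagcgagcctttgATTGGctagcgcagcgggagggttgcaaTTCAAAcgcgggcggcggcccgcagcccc
Ccnb2: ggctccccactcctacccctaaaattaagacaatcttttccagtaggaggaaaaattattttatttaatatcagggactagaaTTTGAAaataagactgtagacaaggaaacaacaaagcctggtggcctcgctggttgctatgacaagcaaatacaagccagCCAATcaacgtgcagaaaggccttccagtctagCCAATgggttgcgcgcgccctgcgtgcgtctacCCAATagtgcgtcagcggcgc

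In these windows *Mki67*, *Top2a* and *Ube2c* held both a CHR and at least 1 CCAAT box, and *Pcna* held a CCAAT box only. The CHR letters nearest to the start were at -23 to -18 in *Top2a*, -29 to -24 in *Ube2c* and -98 to -93 in *Mki67*, counted back from the annotated start. *Ccnb2*, chosen for its ratio of 1.00, held a CHR at -167 to -162 and 3 CCAAT boxes. Whether the motifs bear on the ratios was not tested. A further CHR of *Ccnb2* lay at 5 to 10, after the start and outside the bases shown. In *Ube2c* a CCAAT and an ATTGG match share bases, and no CHR match in the 5 windows overlapped another motif.

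Over the members the CHR followed the phase. Of the 50 genes, 41 had an entry in the promoter table, and in windows of 250 bases before to 50 bases after the start the CHR was found in 17 of 22 genes of the G2/M and M groups (77.3%). It was found in 1 of 19 genes of the G1, G1/S, inhibitor and S groups (5.26%), and in 20.2% of the 27025 genes with an entry. A CCAAT box was found in 31 of 41 members (75.6%, all genes 41.1%) and an E2F core in 12 of 41 (29.3%, all genes 9.20%), with 5 of the 10 S phase genes among the 12. A match to so few letters is a description of the sequence and not a binding site.

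**Figure D2:**
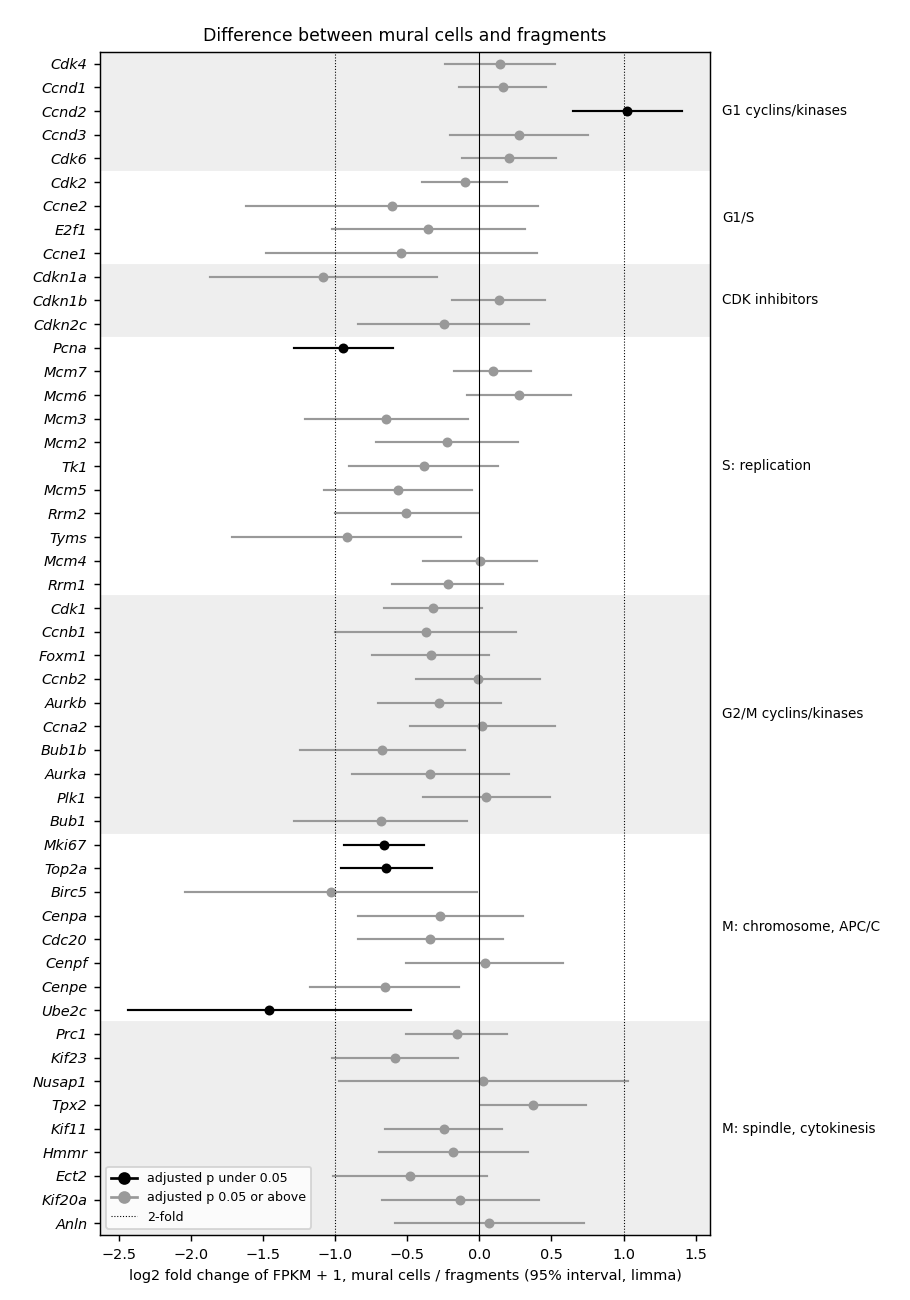
Log2 fold change of FPKM + 1 (mural cells over fragments) of the 50 cell cycle genes by phase, with 95% limma intervals, in black for an adjusted p under 0.05. *Ccnd2* (1.03) is the only black point to the right of 0, and the 4 black points to the left run from -0.64 (*Top2a*) to -1.45 (*Ube2c*).

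By phase, the G1 cyclins and their kinases were the only group with every ratio above 1 (5 of 5, median 1.16), and *Ccnd2* was the only one of them to pass the test. Their summed FPKM was 211, 199 and 210 in fragments 1, 2 and 3 and 251, 285 and 245 in mural cells 1, 2 and 3, without overlap. *Ccnd1* (cyclin D1) was at 56.0 to 65.9 FPKM in the fragments and at 62.4 to 74.4 FPKM in mural cells (ratio 1.12, log2 interval -0.14 to 0.46, limma adjusted p = 0.414). For *Ccnd3* (cyclin D3) the ranges were 21.6 to 33.2 and 28.0 to 39.6 FPKM (ratio 1.21, log2 interval -0.20 to 0.75). The interval of *Ccnd1* excludes a 2-fold difference in either direction, and so does that of *Ccnd3*.

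*Cdk4*, a kinase partner of the D-type cyclins, had the highest mean FPKM of the members in mural cells. It was at 80.6, 93.0 and 70.4 FPKM there and at 72.1, 62.2 and 86.4 FPKM in the fragments (ratio 1.11, log2 interval -0.23 to 0.53). *Cdk6*, the other partner, was at 21.6, 24.8 and 21.8 FPKM in mural cells and at 19.7, 18.7 and 20.3 FPKM in the fragments. The 2 groups of *Cdk6* did not overlap, but the ratio was 1.16 and the test was not passed (limma adjusted p = 0.346). Exons of *Ccnd1*, *Ccnd3*, *Cdk4* and *Cdk6* overlap a gene on the other strand (*Oraov1*, *Bysl*, *Tspan31* and *Gm17590*), and the use of strand in counting is not given in the sources used here.

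The balance among the D-type cyclins differed between the preparations. *Ccnd2* made up 25.1%, 22.2% and 24.6% of their summed FPKM in fragments 1, 2 and 3 and 30.9%, 38.8% and 39.1% in mural cells 1, 2 and 3. All mural shares were above all fragment shares. The mean share of *Ccnd1* was 52.4% in the fragments and 42.6% in mural cells, and that of *Ccnd3* was 23.7% and 21.2%, so that *Ccnd1* had the largest mean share in both. In the order of mean FPKM among the members, *Ccnd2* was at rank 4 in mural cells and at rank 18 in the fragments.

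**Figure D3:**
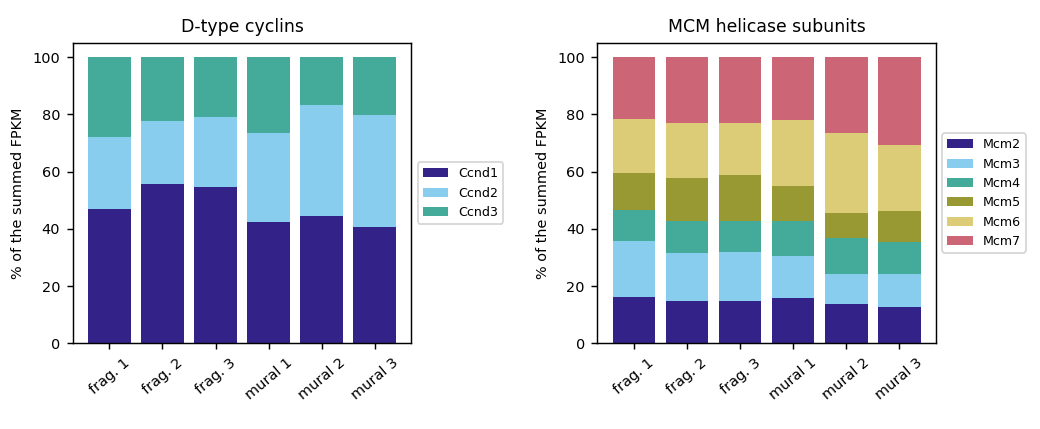
Share of the summed FPKM (%) taken by each D-type cyclin (left) and each MCM subunit (right) in each of the 6 libraries. The *Ccnd2* band covers 22.2 to 25.1% in the fragments and 30.9 to 39.1% in mural cells, and the *Mcm6* band 18.3 to 19.0% and 23.1 to 28.0%.

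The genes of the passage from G1 to S phase all had ratios under 1 (4 of 4, median 0.749), and none passed the test. *Ccne1* and *Ccne2*, the E-type cyclins, were at low levels and varied between the mural libraries. *Ccne1* was at 8.60, 5.64 and 4.89 FPKM in the fragments and at 2.55, 2.98 and 7.64 FPKM in mural cells (ratio 0.688, log2 interval -1.48 to 0.40). *Ccne2* went from 14.1 FPKM in mural cells 1 to 3.40 FPKM in mural cells 3, around fragment values of 10.3 to 13.8 FPKM (ratio 0.715, log2 interval -1.62 to 0.41). These intervals leave room for a 2-fold lower level. *Cdk2*, their kinase partner, was much tighter, with 31.7, 31.2 and 30.1 FPKM in the fragments and 31.6, 27.7 and 27.5 FPKM in mural cells (ratio 0.933, log2 interval -0.39 to 0.19). *E2f1*, an activator of S phase genes, had a ratio of 0.783 with overlapping groups (log2 interval -1.02 to 0.32).

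Among the CDK inhibitors, *Cdkn1a* (p21, a target of p53) had the lowest ratio. It was at 69.1, 36.5 and 58.9 FPKM in fragments 1, 2 and 3 and at 27.0, 34.9 and 15.6 FPKM in mural cells 1, 2 and 3. The groups did not overlap, although fragments 2 and mural cells 2 nearly touched, and the ratio was 0.471 (log2 fold change -1.08, interval -1.86 to -0.30). The limma adjusted p was 0.0571, just outside the threshold, and it ran from 0.0348 to 0.191 over the alternatives. Without fragments 2 it was 0.0443, and without mural cells 2 it was 0.0348. *Cdkn1b* (p27) lay at 25.5 to 26.7 FPKM in the fragments and at 25.1 to 31.1 FPKM in mural cells (ratio 1.11, log2 interval -0.19 to 0.46). *Cdkn2c* (p18, an inhibitor of Cdk4 and Cdk6) had a ratio of 0.822, with fragments 3 at 17.5 FPKM above the other 5 libraries, which were at 8.39 to 12.4 FPKM.

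**Figure D4:**
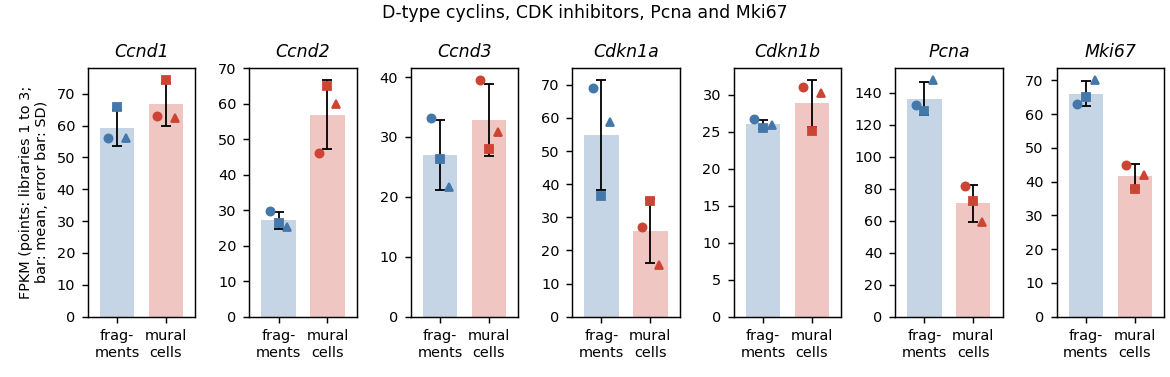
FPKM of the D-type cyclins, *Cdkn1a*, *Cdkn1b*, *Pcna* and *Mki67* in the 6 libraries (points), with the mean (bar) and SD (error bar) of each group, n = 3, on axes that start at 0. The mural points lie above the fragment points for *Ccnd2* and below them for *Cdkn1a*, *Pcna* and *Mki67*, while those of *Ccnd1*, *Ccnd3* and *Cdkn1b* overlap.

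In the S phase group, 8 of 11 ratios were under 1 (median 0.763), and *Pcna* was the one gene that passed the test. The summed FPKM of the group was 452, 399 and 470 in fragments 1, 2 and 3 and 374, 317 and 302 in mural cells 1, 2 and 3, without overlap. *Pcna* was the largest part of this sum in each library (132, 128 and 148 FPKM in the fragments, 81.9, 72.1 and 58.9 in mural cells). The gap between the sums rests in large part on *Pcna*, and a separation is not shown for the rest of the group. The 6 subunits of the MCM helicase, which form a single ring, did not have the same ratio. *Mcm6* was at 40.8, 34.0 and 37.9 FPKM in the fragments and at 50.5, 49.4 and 38.0 FPKM in mural cells (ratio 1.22, limma adjusted p = 0.247). At the other end, *Mcm3* was at 42.7, 30.1 and 35.0 FPKM in the fragments and at 31.9, 18.8 and 18.6 FPKM in mural cells (ratio 0.644, log2 interval -1.21 to -0.08, adjusted p = 0.102). *Mcm5* was close to *Mcm3* (ratio 0.683, log2 interval -1.07 to -0.05, adjusted p = 0.113), while *Mcm2* (0.866), *Mcm4* (1.01) and *Mcm7* (1.07) lay between. None of the 6 passed the test.

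Within the summed FPKM of the MCM genes, *Mcm6* took 18.9%, 19.0% and 18.3% in the fragments and 23.3%, 28.0% and 23.1% in mural cells. *Mcm3* took 19.8%, 16.8% and 16.9% in the fragments and 14.7%, 10.6% and 11.4% in mural cells. Both shares were apart between the groups, in opposite directions. Exons of *Mcm7* overlap *Ap4m1* and *Cops6* on the other strand and *Mir25* and *Mir93* on the same strand, so its value is less certain.

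The genes of nucleotide supply had ratios of 0.560 to 0.848, and none passed the test. *Tyms*, thymidylate synthase, was at 23.9 to 26.7 FPKM in the fragments, and at 23.7 FPKM in mural cells 1 but 10.5 and 8.66 FPKM in mural cells 2 and 3 (ratio 0.560, log2 interval -1.71 to -0.13, limma adjusted p = 0.0970). *Rrm1* and *Rrm2*, the large and small subunits of ribonucleotide reductase, had ratios of 0.848 and 0.698, and *Tk1*, thymidine kinase, of 0.763. Mural cells 1 had the highest of the 3 mural values of *Tyms* (23.7 FPKM) and the lowest of *Rrm2* (15.3 FPKM) and *Tk1* (18.3 FPKM). When this library was left out, *Tyms* (adjusted p = 0.00412), *Mcm3* (0.0197), *Mcm5* (0.0219) and *Bub1* (0.0320) also passed the test as lower, which made 8 members in place of 4.

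None of the 10 genes of the G2/M group passed the test, and their median ratio was 0.796. The cyclins themselves were close to equal or overlapped. *Ccna2* (cyclin A2) was at 17.0, 16.8 and 23.2 FPKM in the fragments and at 22.3, 14.9 and 20.8 FPKM in mural cells (ratio 1.02, log2 interval -0.48 to 0.52). *Ccnb2* (cyclin B2) had a ratio of 1.00 (log2 interval -0.44 to 0.42), with 18.5 to 22.9 FPKM in the fragments and 16.4 to 23.0 FPKM in mural cells. For these 2 cyclins a 2-fold difference lies outside the interval. *Ccnb1* (cyclin B1) had a ratio of 0.755, and its values spread from 23.1 to 43.4 FPKM in the fragments and from 18.2 to 29.4 FPKM in mural cells.

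*Cdk1*, the kinase that these cyclins activate, was at 59.4, 51.0 and 56.1 FPKM in the fragments and at 45.6, 37.4 and 50.2 FPKM in mural cells. The groups did not overlap, with a ratio of 0.801 and a limma adjusted p of 0.162. *Bub1* and *Bub1b*, kinases of the spindle checkpoint, had the lowest ratios of the group, 0.600 (adjusted p = 0.101) and 0.607 (adjusted p = 0.0926), also without overlap. The mitotic kinase genes *Plk1*, *Aurka* and *Aurkb* had ratios of 1.04, 0.760 and 0.816, and *Foxm1*, a transcription factor of G2/M genes, had a ratio of 0.791.

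The group of Ki-67, chromosome, kinetochore and APC/C genes had the lowest median ratio of the 7 groups, 0.630, and 3 of its 8 genes passed the test, all lower (*Mki67*, *Top2a* and *Ube2c*), where 13% of all genes tested passed as lower. With fragments 1 or fragments 3 left out, 1 of the 8 passed (*Mki67*). Over the 27 genes of the G2/M and M groups together, the same 3 passed as lower (11.1%), and the median ratio was 0.801. The summed FPKM of this group was 234, 219 and 259 in fragments 1, 2 and 3 and 167, 146 and 160 in mural cells 1, 2 and 3. *Cenpe*, a kinetochore motor, was at 11.3, 11.9 and 11.8 FPKM in the fragments and at 5.84, 6.53 and 9.17 FPKM in mural cells. These values did not overlap, but the test was not passed (ratio 0.614, limma adjusted p = 0.0740). *Birc5* (survivin) was at 34.4, 27.6 and 36.2 FPKM in the fragments and at 25.4, 20.7 and 6.80 FPKM in mural cells, so that mural cells 3 stood far below the rest. Its ratio was 0.538 (adjusted p = 0.139), and 0.704 without that library. *Cenpa* (the histone variant of centromeres), *Cenpf* (a kinetochore protein) and *Cdc20* (an activator of the APC/C) had ratios of 0.836, 1.03 and 0.776 with overlapping groups.

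Genes of the spindle and of cytokinesis were nearest to the fragments among the groups of mitosis, with a median ratio of 0.889, and none of the 9 passed the test. *Tpx2*, which activates Aurora A on spindle microtubules, was higher in every mural library, with 27.1, 25.5 and 29.8 FPKM against 20.6, 18.3 and 24.1 FPKM in the fragments. Its ratio was 1.31 (log2 interval 0.01 to 0.74, limma adjusted p = 0.132). *Kif23*, a motor of the central spindle, was lower in every mural library, with 18.6, 15.4 and 14.2 FPKM against 29.7, 21.2 and 22.9 FPKM (ratio 0.652, adjusted p = 0.0641). *Nusap1*, a microtubule-binding protein, was at 15.2 and 17.6 FPKM in mural cells 1 and 2 but at 50.5 FPKM in mural cells 3, where the fragments were at 19.5 to 29.7 FPKM. The ratio of *Nusap1* was 1.17 with all libraries and 0.689 without mural cells 3. The others were *Kif11* (0.828), *Kif20a* (0.912) and *Prc1* (0.889), which act on spindle microtubules, *Hmmr* (0.873), and the cytokinesis genes *Anln* (1.09) and *Ect2* (0.691).

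Some properties cut across the phases. The order of the members by level was much alike in both preparations: across the 50 genes, mean log2(FPKM + 1) in mural cells and in the fragments gave a Pearson r of 0.900 and a Spearman rho of 0.90. Genes are not independent replicates, and the 2 means share gene length, annotation and processing. In mural cells *Cdk4* (81.3 FPKM), *Pcna* (71.0), *Ccnd1* (66.6) and *Ccnd2* (56.9) were the most abundant, and the ranges of neighbours in that order overlapped. In the fragments the order was *Pcna* (136 FPKM), *Cdk4* (73.6), *Mki67* (66.1) and *Top2a* (61.1), with *Pcna* above the others in each library. The median coefficient of variation of the members was 18.6% in mural cells and 14.9% in the fragments, and over all genes tested it was 26.4% and 15.3%. A median of 54 read pairs stood behind a member's value in a mural library and of 327.5 in a fragment library. No single mural library gave most of the low values: the lowest of the 3 mural values was in mural cells 1 for 14 members, in mural cells 2 for 15 and in mural cells 3 for 21.

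Some values are less certain because of the annotation. Exons of 13 members overlap a gene on the other strand, which beside those named above are *Ccne2*, *Tyms*, *Tk1*, *Ccna2*, *Cdc20*, *Kif20a* and *Nusap1*. *Ccnd3* and *Ccnb2* have a named pseudogene, and *Foxm1* and *Top2a* overlap another gene on the same strand.

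Other genes of the cell cycle, 81 of which were tested out of 82 found, had a median ratio of 0.803, with 66 under 1 and 15 above 1. One passed the test as higher (1.23%, all genes tested 9.34%) and 6 passed as lower (7.41%, all genes tested 13%), so both shares were below those of all genes. *Incenp*, a subunit of the chromosomal passenger complex, was the only one called. It was at 22.2, 27.7 and 22.6 FPKM in the fragments and at 10.9, 14.0 and 7.35 FPKM in mural cells (ratio 0.445, limma adjusted p = 0.0152). The gene that rose was *Cdkn1c* (p57), a CDK inhibitor and an imprinted gene, with 26.9, 33.4 and 23.6 FPKM in the fragments and 45.8, 43.3 and 37.5 FPKM in mural cells (ratio 1.51, adjusted p = 0.0423). Its groups did not overlap.

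Of the further inhibitors, *Cdkn2b* (0.742) and *Cdkn3* (0.928) did not pass the test, and *Cdkn2a* was under the filter, listed at 0 in every mural library and at 0.675 to 1.87 FPKM in the fragments. Among the pocket proteins, which bind E2F factors, *Rb1* (0.564), *Rbl1* (0.799) and *Rbl2* (0.810) did not pass. *E2f7*, a repressor of the E2F family, fell to a ratio of 0.652 (limma adjusted p = 0.0488). *E2f2*, *E2f3*, *E2f4*, *E2f5* and *E2f8* had ratios of 0.614, 0.880, 0.944, 1.50 and 0.750 and did not pass the test. *E2f6* had a ratio of 0.189 that rests on fragments 3, where it was at 137 FPKM, against 8.89 to 11.5 FPKM in the other 5 libraries. Further genes that fell, named after their values were seen, were *Ncaph* (condensin, ratio 0.614), *Dbf4* (the partner of the Cdc7 kinase, 0.536) and *Kif15* (a spindle motor, 0.577).

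**Figure D5:**
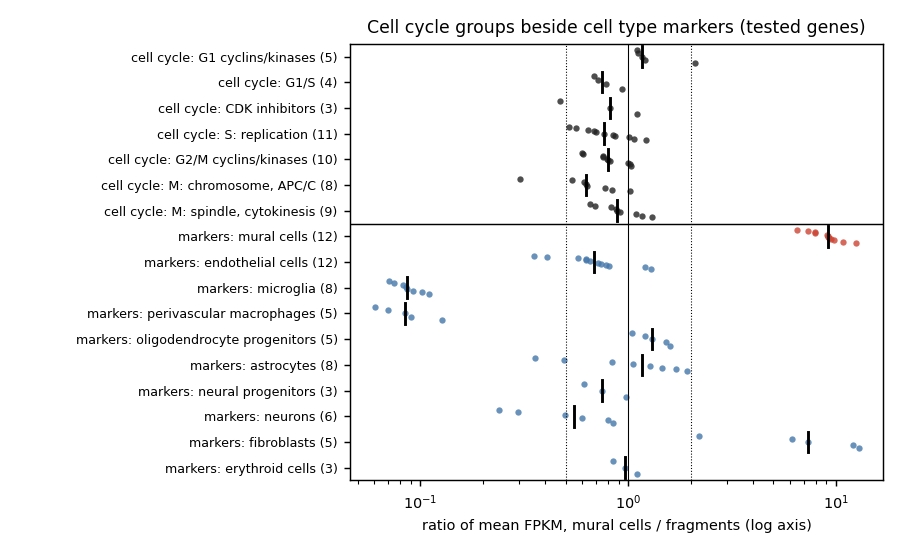
Ratio of mean FPKM (mural cells to fragments, log axis) of each tested gene in the 7 cell cycle groups and in 10 lists of cell type markers, with the median of each list as a black bar and dotted lines at 0.5 and 2. Medians of the cell cycle groups run from 0.630 to 1.16, against 9.17 for mural markers, 0.685 for endothelial markers and 0.0859 for microglial markers.

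The median ratio of the members (0.819) was above that of the endothelial markers (0.685), of which 7 of 12 passed the test as lower (58.3%, all genes tested 13%). The part of endothelial and microglial RNA in the fragments in the ratios of *Pcna*, *Mki67*, *Top2a* and *Ube2c* was not tested.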

How the data were processed

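RNA-seq libraries were made by the authors with a stranded total RNA kit for low input after removal of rRNA, and sequenced as paired-end reads in a single lane. Per the labels and the methods, the authors aligned the reads to NCBIM37 with TopHat2 2.0.4, removed duplicates with Picard 1.92 and used Cufflinks 2.2.1. The deposited values are FPKM per Ensembl gene, 1 file per library, with replicates kept apart. Removing duplicates can lower the values of abundant genes. How Cufflinks scaled the libraries is not given in the sources used here.

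Of 9 identifiers listed more than once, 1 line was kept, since the repeats held identical values. Symbols and positions came from GENCODE (NCBIM37), where 33116 of 33460 identifiers were found. Ratios are of mean FPKM. The tests used limma 3.58.1 (R 4.3.3) on log2(FPKM + 1), with the prior variance following intensity, for 14801 genes that had 1 FPKM or more in 3 or more libraries. FPKM are not counts, so no count test was used, and the fit was tested on simulated data. Summed FPKM and shares over members are given as values without a test. The FPKM of 1 read pair was set on single-transcript genes (97.9 to 98.6% of low values whole within 0.05 of a read pair, with 200 bases taken off the length). Read pairs derived from it are approximate for genes with several transcripts and for sums that include them, and 10 members have a single transcript. Exons of 13 members overlap a gene on the other strand. Promoters were matched by symbol to RefSeq (GRCm38.p6).

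Every member is named. Of the other cell cycle genes, the text names those called, the CDK inhibitors, the pocket proteins and the E2F genes, beside 3 named after their values were seen, and 1 gene that passed the test is not reported here. *Cdkn2d* and *Lhfpl3* were not matched by symbol. The members, the lists and the tests were chosen with earlier results of these data known. Alternatives were a pseudocount of 0.1, no filter or an FPKM of at least 5, leaving out genes at 0 in a whole group, quantile normalization, median-ratio scaling, a fit without the trend, a block for the replicate number, calls on limma's fold change instead of the ratio, an adjusted p under 0.01, protein-coding genes alone, and leaving out each library in turn. Other steps used Python 3.11.15 with pandas 2.3.3.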

Additional observations from a re-analysis of the deposited data

How the results depend on the processing

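*Ccnd2*, *Pcna* and *Mki67* passed the test in the same direction under all alternatives run. The count of members called lower was 0 with a pseudocount of 0.1, without a filter and at an adjusted p under 0.01, and 2 with quantile normalization (*Pcna* and *Cdkn1a*, while *Ube2c* lost its call at an adjusted p of 0.0733) and with protein-coding genes alone (*Ube2c* and *Cdkn1a*). At an adjusted p under 0.01 the members past the test as lower numbered 2, with 1 in the group of Ki-67, chromosome and APC/C genes. With quantile normalization, and with protein-coding genes alone, 1 CDK inhibitor (*Cdkn1a*) passed. All genes tested and called lower numbered 948 with an FPKM of at least 5 and 845 at an adjusted p under 0.01. When 1 library was left out, the members called numbered 0 to 1 higher and 0 to 4 lower, those past the test as lower 2 to 8, and all genes called lower 607 to 1733. In the same refits 0 to 1 CDK inhibitors, 1 to 4 S phase genes, 0 to 1 G2/M genes and 1 to 3 genes of the Ki-67 group passed. The median log2 ratio of the members ran from -0.38 (without mural cells 3) to -0.14 (without fragments 3). Direction turned only in members that did not pass the test. *Ccnb2* turned to 0.0254 with median-ratio scaling and 0.0364 with quantile normalization. Without 1 library the log2 fold changes ran from -0.0866 to 0.145 for *Ccnb2*, -0.0863 to 0.189 for *Ccna2*, -0.0593 to 0.152 for *Plk1*, -0.11 to 0.20 for *Cenpf*, -0.49 to 0.34 for *Nusap1*, -0.11 to 0.13 for *Mcm4*, -0.10 to 0.36 for *Anln* and -0.29 to 0.0033 for *Kif20a*. The cause was not tested. Of 850 values of single members under an alternative, 805 kept their direction and their side of the threshold.

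The replicate numbers were not used as pairs in the main fit, since the labels do not tie a number to a mouse. Across genes, deviations from the group means correlated at 0.082, 0.020 and 0.045 for same-numbered libraries. For differently numbered libraries the correlations ran from -0.061 to 0.010, so each same-numbered value was the highest for both of its libraries. Deviations within a group depend on each other, so these values cannot decide whether a number marks a mouse. With the replicate number as a block, 2 S phase genes passed as lower, *Pcna* and *Mcm3*, so that 5 members passed as lower in all. Mural libraries were shallow, and a member with as few as 17 read pairs over 3 libraries (*Ube2c*) gives a coarse value.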
